A study of Homo sapiens with 12 samples.

Results

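Potassium channel genes were followed in IMR90, a normal fibroblast line from human lung, after expression of oncogenic RAS and after knockdown or overexpression of the histone methyltransferase DOT1L. The genes were chosen by name and level: protein-coding genes whose symbol begins with KCN and that had at least 10 counts in at least 3 of 12 RNA-seq libraries. Of 48162 gene IDs in the files, 95 were protein-coding KCN genes, 37 of these met the rule, and 25 of the other 58 had no count in any library. Just inside the rule stood KCNE3 and KCNJ14, each with 3 such libraries, and KCNE5 and KCNK1, each with 4, while 8 genes with 1 or 2 such libraries stood just outside it. KCNK1 had 3 of its 4 such libraries in DOT1L OE and would not have met the rule without that group, and KCNE3 and KCNJ14 likewise needed every group they had such libraries in. In all, 10 genes had at least 10 counts in all 12 libraries.

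There were 4 groups of 3 libraries. RAS/shDOT1L cells received pBABE-HRASG12V together with a hairpin RNA against DOT1L in pLKO.1, RAS cells received pBABE-HRASG12V, DOT1L OE cells received human DOT1L from MSCB-hDot1lwt, and Control cells received the empty pBABE vector. All cells grew in 2% O2. Selection lasted 4 days and used 3 µg/mL puromycin in RAS/shDOT1L, RAS and Control but 1 µg/mL blasticidin in DOT1L OE. Neither the selecting drug nor the vector can therefore be told apart from DOT1L overexpression in the comparison of DOT1L OE with Control. The labels give 1 hairpin construct, name no control hairpin in RAS or Control cells, and do not say whether the 3 libraries of a group came from separate infections. Legends in the paper call RNA-seq values technical replicates of 1 experiment, while its RNA-seq methods speak of biological replicates per condition. P-values below therefore rest on differences among these libraries, and these may be technical.

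Potassium channels let potassium leave the cell down its gradient and so set the resting membrane potential, cell volume and the driving force for calcium entry. The pore is built from subunits of a few families. Voltage-gated channels open on depolarization, calcium-activated channels on a rise of calcium, inward rectifiers pass current best near the resting potential, tandem-pore-domain channels leak at rest and respond to stretch, lipids or pH, and auxiliary subunits (KCNE, KCNMB, KCNAB and KCNIP) change the gating or surface delivery of the pores. In fibroblasts the large-conductance calcium-activated channel KCNMA1 and the intermediate-conductance channel KCNN4 are among the best studied. Of the genes measured here, 14 of 40 voltage-gated, 10 of 17 auxiliary or regulatory and 6 of 15 inward rectifier genes met the rule. So did 4 of 8 calcium- or sodium-activated and 3 of 15 tandem-pore-domain genes. Families were set by symbol, so the calcium- or sodium-activated family also holds KCNU1, which was not placed there for activation by either ion.

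The labels were checked first. DOT1L stood at 11.0 ± 0.64 CPM (counts scaled to library size with TMM factors over all 12 libraries, mean ± SD, n = 3 libraries) in RAS/shDOT1L, 84.5 ± 3.4 CPM in RAS, 202.0 ± 9.2 CPM in DOT1L OE and 31.7 ± 2.3 CPM in Control. HRAS stood at 275.3 ± 13 CPM in RAS/shDOT1L, 503.0 ± 10 CPM in RAS, 79.4 ± 5.5 CPM in DOT1L OE and 85.9 ± 2.8 CPM in Control. HRAS was thus lower in RAS/shDOT1L than in RAS, with a log2 fold change of -0.85, so less HRAS moved together with less DOT1L in that comparison, and their parts in the results below cannot be told apart. Counts came from the whole gene, so reads of an introduced cDNA and of the gene in the genome are summed. Libraries held 16128055 to 19503457 counts. All 9 fibroblast markers averaged at least 1 CPM in every group. Their sum was 14678 to 15099 CPM in RAS, against 19473 to 19711 CPM in Control, with 7 means lower and 2 higher. It was 16192.4 to 16778.5 CPM in RAS/shDOT1L and 15111 to 15770 CPM in DOT1L OE. COL1A1 and COL1A2 carried the fibroblast sums, with means of 9442 and 6151 CPM in Control. The 8 epithelial markers summed to 97.9 to 109 CPM in RAS, against 257 to 276 CPM in Control, with 7 means lower and 0 higher. They summed to 320 to 344 CPM in RAS/shDOT1L and 128 to 134 CPM in DOT1L OE. KRT8, KRT18 and KRT19 carried the epithelial sums. The 5 endothelial markers measured summed to 10.2 to 11.4 CPM in RAS/shDOT1L, 15.9 to 20.6 CPM in RAS, 15.3 to 17.4 CPM in DOT1L OE and 0.553 to 2.05 CPM in Control. TIE1 averaged 12.8 CPM in RAS, against 0.409 CPM in Control, and KDR 11.6 CPM in DOT1L OE, against 0.211 CPM in Control, while the defining endothelial gene CDH5 was at 0 counts in RAS, DOT1L OE and Control. The part of these markers in the results was not tested. The 7 immune markers summed to 0.188 to 3.57 CPM over the 12 libraries, with CD14 at 2.57 CPM in RAS, against 1.15 CPM in Control, and CD68 and ITGAM at 0 counts in all 4 groups. In bulk RNA, fewer cells of a type and less RNA per cell cannot be told apart.

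Together the 37 genes gave 166.1 ± 2.7 CPM in RAS/shDOT1L, 181.7 ± 9.4 CPM in RAS, 270.3 ± 2.5 CPM in DOT1L OE and 148.7 ± 8.0 CPM in Control (SD, n = 3 each). The families shared the sum differently in each group. Inward rectifiers summed to 43.1 ± 1.9 CPM in RAS, against 7.69 ± 2.0 CPM in Control, and voltage-gated genes to 63.0 ± 9.4 CPM in RAS, against 30.6 ± 3.2 CPM in Control. Auxiliary genes summed to 15.6 ± 1.2 CPM in RAS, against 28.2 ± 4.3 CPM in Control. Tandem-pore-domain genes summed to 4.44 ± 1.3 CPM in RAS, against 10.7 ± 1.2 CPM in Control. A few genes carried much of these differences. KCNJ15 stood at 37.2 CPM in RAS and 0.58 CPM in Control, and KCNE1 at 0.72 and 13.6 CPM. In the same order, KCNF1 stood at 15.9 and 2.99 CPM and KCNG1 at 23.9 and 4.12 CPM. KCNK6 stood at 4.15 and 7.74 CPM and KCNK2 at 0.12 and 2.85 CPM. In DOT1L OE the larger sum was mostly KCNMA1, which made up 54.3 ± 2.1% of it, against 39.3 ± 1.7% in Control.

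**Figure D1:**
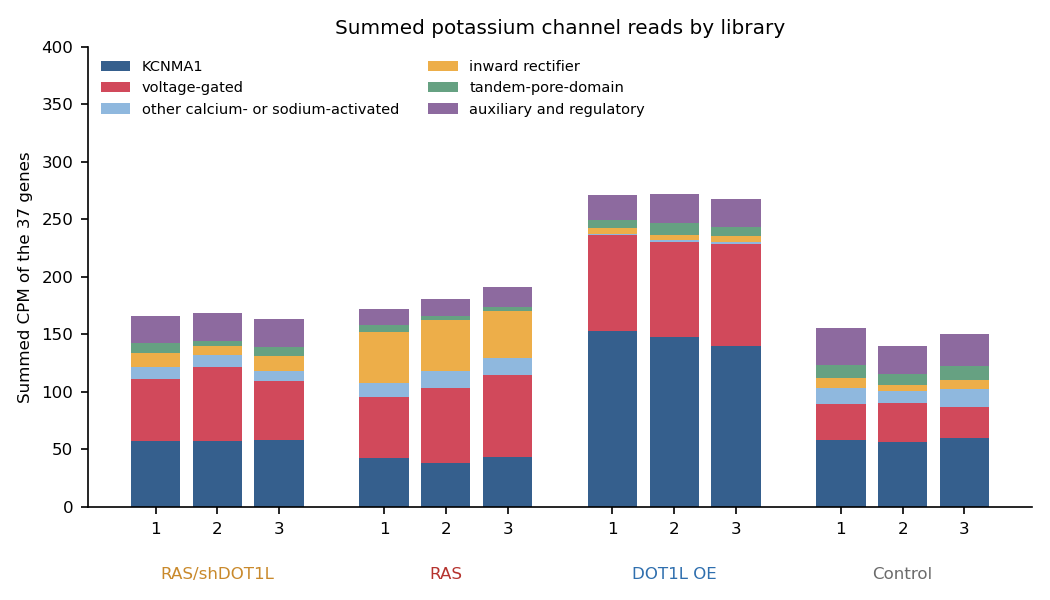
Stacked bars give the CPM summed over the 37 genes (y axis) in each of 12 libraries (x axis, replicate numbers within 4 groups), with KCNMA1 apart from the other families. The 3 DOT1L OE bars are the tallest, and the inward rectifier part is thickest in the 3 RAS libraries.

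Per kilobase of annotated exon, KCNG1 led in RAS/shDOT1L with 4.42 CPM per kb and KCNS3 in Control with 2.23 CPM per kb. KCNF1 led in RAS with 6.92 and in DOT1L OE with 20.9 CPM per kb. The length takes in every annotated exon of a gene, 39.4 kb for KCNMA1 against 2.29 kb for KCNF1 and 3.13 kb for KCNS3. A gene whose transcripts use only some of these exons reads low on this scale. The order of genes and their shares therefore rest on that length. In DOT1L OE, KCNF1 alone was 54.1% of the sum of CPM per kb over the 37 genes. KCNF1, KCNG1 and KCNS3 all encode electrically silent voltage-gated subunits, which form no working channel by themselves and alter the channels of other voltage-gated subunits when they join them. KCNE1, an auxiliary subunit known from the heart for its pairing with KCNQ1, was measured where KCNQ1 had 2 counts in all.

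**Figure D2:**
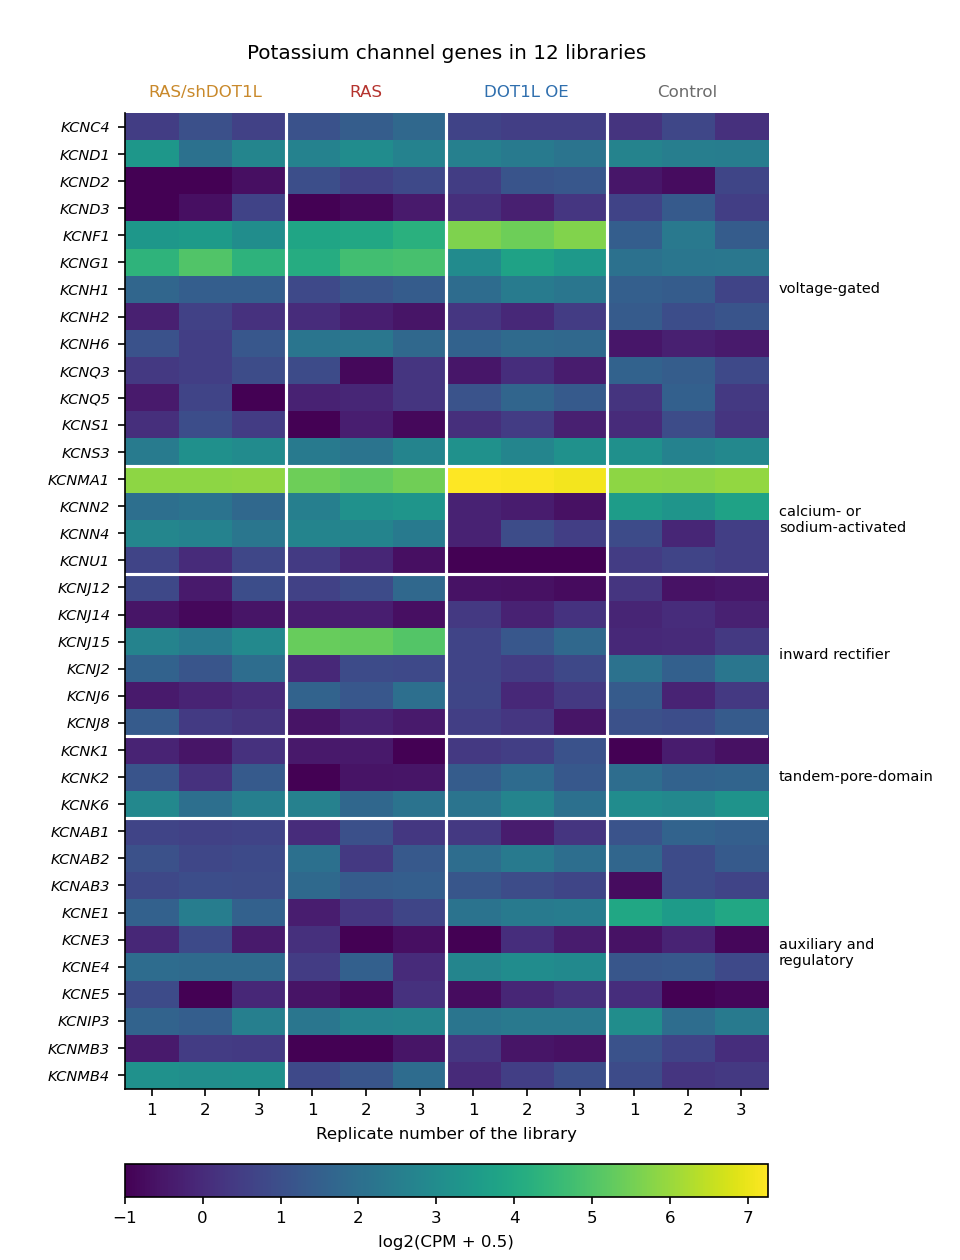
Heat map of log2(CPM + 0.5) for 36 of the 37 genes (rows, by family) in the 12 libraries (columns, by group and replicate number). KCNMA1 is the brightest row in every library but RAS replicate 2, where KCNJ15 is slightly brighter, and the KCNF1 row is brightest in DOT1L OE.

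Sequence directly before the RefSeq start of transcription is shown for 3 genes, to let its letters be read beside the values. The level of each changed strongly in at least 1 comparison, and each window lies outside exons of the gene. The sequences are the 100 bases before the RefSeq start on GRCh38.p14, read 5′ to 3′ on the gene's strand. Capitals mark words searched for on both strands: the AP-1 site TGAGTCA, the cyclic AMP response element TGACGTCA, the C/EBP-type word TTGCNNAA, the GC box GGGCGG and the TATA box TATAAA.
KCNF1, chr2:10911834-10911933, plus strand: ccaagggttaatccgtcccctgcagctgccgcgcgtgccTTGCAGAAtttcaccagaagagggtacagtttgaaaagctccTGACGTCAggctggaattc
KCND2, chr7:120273075-120273174, plus strand: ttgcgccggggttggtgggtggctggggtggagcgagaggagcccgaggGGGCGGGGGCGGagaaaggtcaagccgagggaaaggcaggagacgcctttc
KCNJ8, chr12:21774707-21774806, minus strand: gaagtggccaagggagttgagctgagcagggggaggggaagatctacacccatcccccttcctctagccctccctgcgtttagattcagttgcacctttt

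KCNF1 carries a full cyclic AMP response element from 19 to 12 bases before its start and a C/EBP-type word from 61 to 54 bases before it. The element is found in 1.17% and the C/EBP-type word in 3.20% of 35116 RefSeq windows of this length, and KCNF1 was the only one of the 28 genes with a window that held the element. KCND2 has 2 adjoining GC boxes, a word in 31.3% of all windows and in those of 19 of the 28 genes. KCNJ8 held none of the words searched. Its window lies inside the GENCODE span of the gene (21764955 to 21775600, minus strand), so it does not cover the bases before that farther start. KCNJ15, whose window overlaps exons of longer transcripts and is not printed, has an AP-1 site from 35 to 29 bases before its RefSeq start (chr21:38272408-38272507 is the window), a word in 1.94% of all windows and in no other of the 28. Shares here are of single windows, while a gene was counted if any of its windows held the word, so these measures cannot be compared. These matches are letters in a window, not sites shown to be bound, and the counts do not say which start was used.

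RAS cells were first set against Control, the comparison that asks what oncogenic RAS does to these genes. Both directions were seen: 10 of the 32 genes tested were higher in RAS and 12 were lower, at an adjusted p under 0.05. Over all 13554 genes tested, 31.9% were higher and 32.0% lower, so the share of channel genes called was near the background. Channel genes were lower in expression than most, with a median of 2.07 CPM against 20.2 CPM for all genes tested, and 19 of the 32 were both called and at least 2-fold changed, where 22.0% of all genes were. The median log2 fold change was -0.25 for the channel genes and -0.04 for all genes. By family, all 5 tested inward rectifiers were called (3 higher, 2 lower), as were 8 of 13 voltage-gated genes (5 higher, 3 lower), 4 of 8 auxiliary genes (1 higher, 3 lower), 3 of 4 calcium- or sodium-activated genes (1 higher, 2 lower) and both tandem-pore-domain genes tested (lower).

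The inward rectifier KCNJ15 (Kir4.2, ENSG00000157551, chromosome 21, 38155549 to 38307357, plus strand, GRCh38) had the largest rise. It stood at 39.7, 39.1 and 32.8 CPM in the RAS libraries, against 0.464, 0.485 and 0.804 CPM in Control. Every RAS library was far above every Control library. The fold was 62.5 (log2 fold change 5.97 ± 0.21 SE, adjusted p = 2.39e-22). Its neighbour on the same chromosome, KCNJ6 (the G-protein-gated Kir3.2, 37607373 to 38121345, minus strand), had 2.56, 1.88 and 3.51 CPM in RAS, against 2.12, 0.377 and 0.804 CPM in Control, and these groups overlapped. Its call (log2 fold change 1.26 ± 0.53, adjusted p = 0.037) was lost without Control replicate 2 (0.86), Control replicate 3 (1.07), RAS replicate 1 (1.28) or RAS replicate 3 (1.01), and without Control replicate 1 the change was 2.14. KCNJ12 (Kir2.2) was 4.77-fold higher (2.25 ± 0.69, adjusted p = 0.0054), a call lost without RAS replicate 3 (1.68, adjusted p = 0.094), and 3.22 without Control replicate 1.

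The other inward rectifiers went down. KCNJ2, the Kir2.1 channel that holds the resting potential in muscle and many other cells, had 0.477, 1.33 and 1.28 CPM in RAS, against 3.87, 2.43 and 4.22 CPM in Control, with no overlap (3.41-fold lower, log2 fold change -1.77 ± 0.45, adjusted p = 0.00088). KCNJ8, the Kir6.1 pore of an ATP-sensitive channel of vascular smooth muscle and pericytes, had 0.179, 0.363 and 0.255 CPM in RAS, against 1.55, 1.46 and 2.11 CPM in Control. Its level was 6.29-fold lower in RAS (-2.65 ± 0.67, adjusted p = 0.0009). ABCC9, the regulatory subunit that pairs with KCNJ8 and is named here after its values were seen, had 0.165 ± 0.14 CPM in RAS, against 1.13 ± 0.24 CPM in Control (log2 fold change -2.73 ± 0.84, adjusted p = 0.0052). The 7 smooth muscle and pericyte markers measured summed to 1489 to 1590 CPM in RAS, against 3922 to 3943 CPM in Control, and their part in these falls was not tested. TAGLN, ACTA2 and CNN1 carried that sum. Of the 7, 4 had a lower mean in RAS and 3 a higher one: MYH11, RGS5 (4.96 CPM in RAS, against 1.86 CPM in Control) and CSPG4 (184.9 CPM in RAS, against 123.1 CPM in Control).

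Among voltage-gated genes, silent subunits KCNF1 and KCNG1 rose. KCNF1 (Kv5.1, ENSG00000162975, chromosome 2, 10911934 to 10914225, plus strand) had 14.1, 14.9 and 18.6 CPM in RAS, against 2.27, 4.53 and 2.16 CPM in Control (5.32-fold, 2.41 ± 0.23, adjusted p = 8.56e-11). KCNG1 (Kv6.1, ENSG00000026559, chromosome 20) had 16.9, 26.5 and 28.2 CPM in RAS, against 3.77, 4.26 and 4.32 CPM in Control (5.78-fold, 2.53 ± 0.19, adjusted p = 1.4e-13). KCNS3 (Kv9.3), the third silent subunit at a high level per kb, had 4.99 ± 1.1 CPM in RAS and 6.97 ± 1.3 CPM in Control (log2 fold change -0.49 ± 0.24, adjusted p = 0.079), and without RAS replicate 3 it passed the test as lower (-0.67, adjusted p = 0.032).

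The EAG-related genes of the KCNH family went in opposite directions. KCNH6 (Erg2) was 14.2-fold higher, at 4.11, 4.30 and 2.94 CPM in RAS, against 0.206, 0.323 and 0.251 CPM in Control (3.83 ± 0.54, adjusted p = 1.9e-07). KCNH2 (the hERG channel that repolarizes the heart) was 4.97-fold lower, at 0.536, 0.303 and 0.191 CPM in RAS, against 2.06, 1.46 and 1.71 CPM in Control (-2.31 ± 0.65, adjusted p = 0.0024). Neither gene's groups overlapped. KCNH1 (EAG1) had 1.73 ± 0.46 CPM in RAS and 1.86 ± 0.66 CPM in Control and was not called (adjusted p = 0.86).

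KCND3 (Kv4.3, which carries fast inactivating current) had 0, 0.061 and 0.255 CPM in RAS, against 1.08, 2.05 and 0.955 CPM in Control (-3.64 ± 0.88, adjusted p = 0.00059). The fall was -5.21 without RAS replicate 3, and the gene overlaps DDX20 on the other strand, whose reads the unstated strand setting could mix with it. The voltage-gated gene KCNC4 rose by a log2 fold change of 1.44 (adjusted p = 0.021), and the M-current gene KCNQ3 fell by 1.48 on the log2 scale (adjusted p = 0.044), with overlapping groups. KCNC4 lost its call without Control replicate 1 (1.32), Control replicate 3 (1.26) or RAS replicate 3 (1.21). KCNQ3 lost it without Control replicate 1 (-1.28), Control replicate 2 (-1.40), RAS replicate 2 (-0.94) or RAS replicate 3 (-1.47), and read -2.38 without RAS replicate 1.

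The 3 calcium-activated genes that passed the test split by type. KCNN4, the intermediate-conductance channel, had 6.14, 6.06 and 4.66 CPM in RAS, against 1.34, 0.431 and 0.955 CPM in Control, with no overlap (6.12-fold higher, 2.61 ± 0.39, adjusted p = 5.96e-07). KCNMA1, the large-conductance channel, had 42.5, 38.6 and 43.7 CPM in RAS, against 58.0, 56.7 and 60.2 CPM in Control (-0.49 ± 0.08, adjusted p = 7.14e-06). KCNN2, a small-conductance channel, had 7.80 ± 2.1 CPM in RAS and 11.3 ± 1.8 CPM in Control (-0.54 ± 0.20, adjusted p = 0.021), and this call was lost without Control replicate 1 (-0.54), Control replicate 3 (-0.42) or RAS replicate 1 (-0.33).

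The 3 largest falls on the log2 scale were outside the voltage-gated genes. KCNK2 (TREK-1, a leak channel opened by stretch and lipids) had 0, 0.182 and 0.191 CPM in RAS, against 3.35, 2.53 and 2.66 CPM in Control (22.0-fold lower, -4.46 ± 0.70, adjusted p = 1.5e-06). Among auxiliary genes, KCNE1 had 0.298, 0.727 and 1.15 CPM in RAS, against 14.6, 11.2 and 15.1 CPM in Control, so the highest RAS library was far below the lowest Control library (18.9-fold lower, -4.24 ± 0.30, adjusted p = 4.61e-14). KCNMB3, a beta subunit of KCNMA1, had 3 counts in RAS against 62 in Control, 17.5-fold fewer with a 95% counting interval of 5.71 to 87.1 (adjusted p = 0.001). All 3 RAS counts of KCNMB3 lay in replicate 3. The gene overlaps PIK3CA on the other strand and the pseudogene LRRFIP1P1 on the same strand, which makes its counts uncertain. KCNAB1 fell (-1.22 ± 0.53, adjusted p = 0.044) and KCNAB3 rose (1.54 ± 0.58, adjusted p = 0.022), both beta subunits of voltage-gated channels of the KCNA type. KCNAB1 lost its call without Control replicate 2 (-1.09), Control replicate 3 (-1.17), RAS replicate 1 (-0.94) or RAS replicate 3 (-1.10), and KCNAB3 without Control replicate 1 (1.01) or RAS replicate 1 (1.37). KCNMB4, another beta subunit of KCNMA1, had 2.09 ± 1.0 CPM in RAS and 0.949 ± 0.34 CPM in Control (1.13 ± 0.55, adjusted p = 0.074), and it passed the test without RAS replicate 1 (1.39, adjusted p = 0.032).

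**Figure D3:**
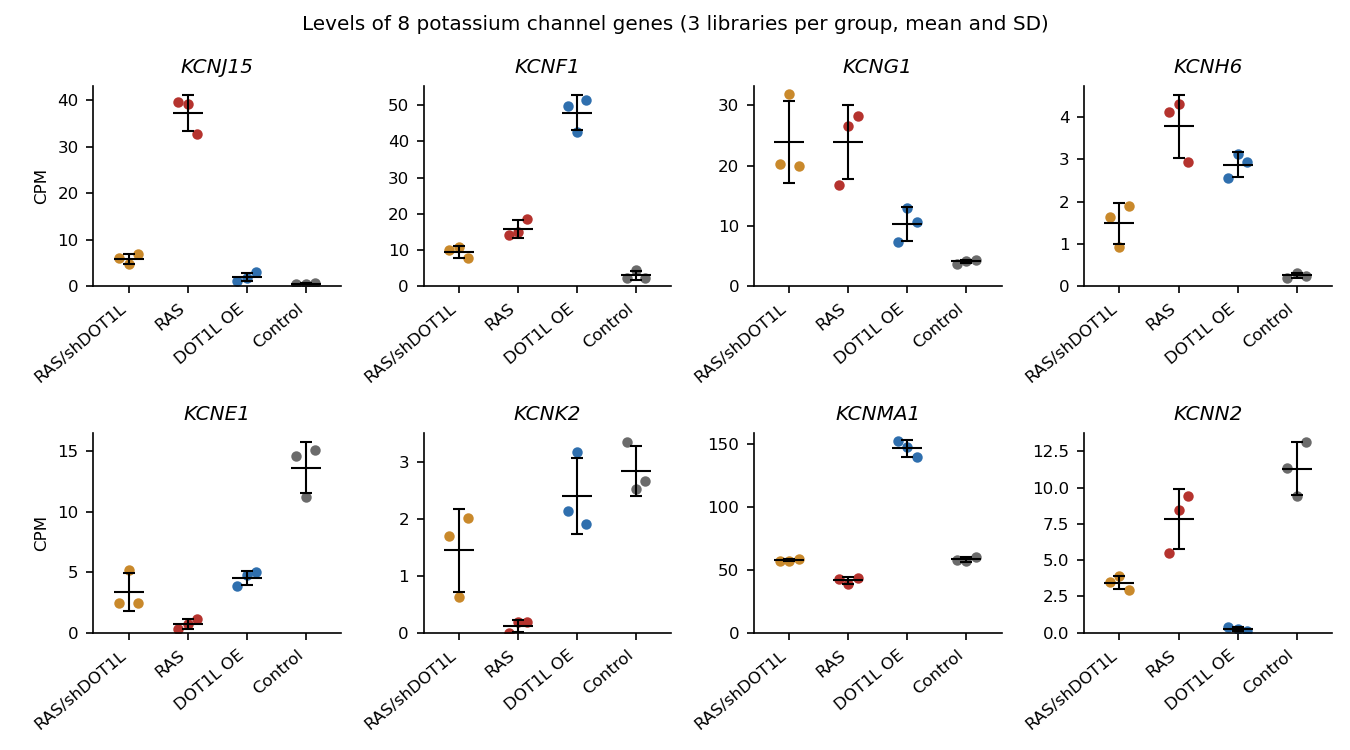
Each panel gives CPM (y axis) of 1 gene in the 3 libraries of each group (points), with the group mean and SD (bars). KCNJ15 is highest in RAS, KCNF1 and KCNMA1 are highest in DOT1L OE, KCNE1 is highest in Control, and KCNN2 is close to 0 in DOT1L OE.

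The GC content of the exons moved with the comparison. Over all genes tested, the median log2 fold change of RAS against Control was -0.62 in the 10% of genes with the lowest GC content and 0.58 in the 10% with the highest. Channel genes called higher had a median GC content of 58.5% and those called lower 46.9%. With an offset for GC content, 7 genes were called higher and 10 lower, and KCNAB1, KCNAB3, KCNC4 and KCNQ3 were among those that lost their calls. KCNF1, the gene of highest GC content among those called, kept its call at 1.77 in place of 2.41. KCNJ15, of low GC content, read 5.97 without the offset and was also called with it. Mitochondrial reads were 3.64% to 3.87% of counts in RAS and 2.31% to 2.54% in Control, and the part of mitochondrial reads in the results was not tested.

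**Figure D4:**
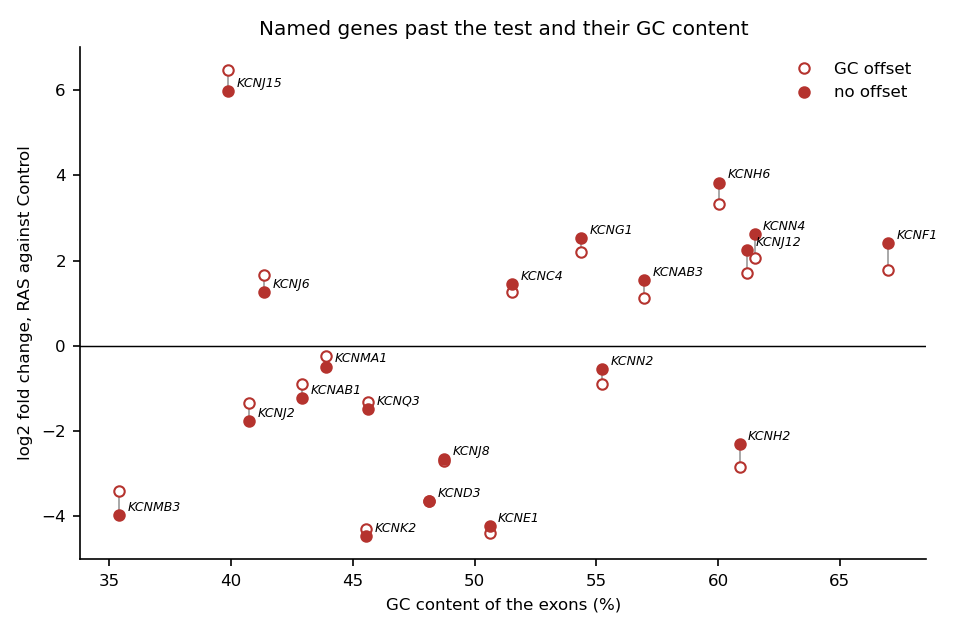
Log2 fold change of RAS against Control (y axis) by GC content of the exons (x axis, percent) for the named genes past the test, without (filled) and with (open) an offset for GC content. KCNJ15 lies at low GC content with the largest rise, and KCNF1, at the highest GC content, moved toward 0 with the offset.

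RAS/shDOT1L cells were next set against RAS cells, which asks how these genes differ when DOT1L is reduced in RAS cells. Of 28 genes tested, 7 were higher in RAS/shDOT1L and 6 were lower, where 26.3% and 26.4% of all 13398 genes tested were. At least a 2-fold called difference was found for 11 of the 28, against 14.2% of all genes. The median log2 fold change was 0.04 for the channel genes and 0.03 for all genes. This comparison uses the same RAS libraries as the one above, and each comparison's own values are given with no count of reversals.

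Of the inward rectifiers, KCNJ15 fell to 5.998, 4.70 and 6.88 CPM in RAS/shDOT1L, against 39.7, 39.1 and 32.8 CPM in RAS, with no overlap (6.26-fold lower, -2.65 ± 0.16, adjusted p = 1.24e-15). It was still 9.92-fold above Control, where the test gave 3.31 ± 0.40 (adjusted p = 5.64e-08). KCNJ6 fell to 0.261, 0.376 and 0.505 CPM in RAS/shDOT1L, below every RAS library (-2.75 ± 0.63, adjusted p = 0.0004). KCNJ2 and KCNJ8 rose by log2 fold changes of 1.34 ± 0.55 and 2.16 ± 0.81 (adjusted p = 0.042 and 0.025). KCNJ2 had 2.54, 1.76 and 3.41 CPM in RAS/shDOT1L, all above the RAS libraries, and KCNJ8 had 2.09, 0.815 and 0.694 CPM, also all above. KCNJ2 lost its call without RAS replicate 1 (0.99), RAS replicate 3 (1.51), RAS/shDOT1L replicate 1 (1.34) or RAS/shDOT1L replicate 3 (1.08). KCNJ8 lost its call without any 1 of the RAS libraries (1.94, 2.43 and 2.12) or without RAS/shDOT1L replicate 1 (1.5). Its partner ABCC9 had 0.382 ± 0.0081 CPM in RAS/shDOT1L, against 0.165 ± 0.14 CPM in RAS and 1.13 ± 0.24 CPM in Control. ABCC9 was too low to be tested in RAS/shDOT1L against RAS. With the GC offset KCNJ2 was at 1.07 (adjusted p = 0.113). The smooth muscle and pericyte markers summed to 3010 to 3130 CPM in RAS/shDOT1L, against 1489 to 1590 CPM in RAS, and their part was not tested. Of the 7, 5 had a higher mean in RAS/shDOT1L and 2 a lower one, RGS5 (1.47 CPM in RAS/shDOT1L, against 4.96 CPM in RAS) and CSPG4 (119.8 CPM in RAS/shDOT1L, against 184.9 CPM in RAS).

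The leak gene KCNK2 and 3 auxiliary genes rose. KCNK2 had 1.70, 0.627 and 2.02 CPM in RAS/shDOT1L, against 0, 0.182 and 0.191 CPM in RAS (11.2-fold higher, 3.49 ± 0.91, adjusted p = 0.0016). KCNE1 had 2.48, 5.21 and 2.46 CPM in RAS/shDOT1L, all above its RAS libraries (4.72-fold, 2.24 ± 0.55, adjusted p = 0.0009), and stayed 4.01-fold below Control (-2.00 ± 0.25, adjusted p = 7.4e-08). KCNMB4 had 8.61, 7.90 and 8.20 CPM in RAS/shDOT1L, against 1.25, 1.76 and 3.26 CPM in RAS (4.00-fold, 2.00 ± 0.32, adjusted p = 2.4e-06). It was also 8.65-fold above Control (3.11 ± 0.32, adjusted p = 3.01e-09), the only auxiliary gene called higher there. KCNE4, an inhibitory subunit of several voltage-gated channels, rose by 1.32 ± 0.51 on the log2 scale (adjusted p = 0.029), and read 2.16 without RAS replicate 2. Its call was lost without RAS replicate 1 (1.11), RAS replicate 3 (0.94) or any 1 of the RAS/shDOT1L libraries (1.30, 1.32 and 1.33).

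Voltage-gated genes were lower or not called. KCND2 (Kv4.2) had 2 counts in RAS/shDOT1L against 62 in RAS, 29.8-fold fewer with a 95% counting interval of 7.92 to 252 (adjusted p = 0.00042). Both RAS/shDOT1L counts lay in replicate 3. KCNH6 had 1.63, 0.941 and 1.89 CPM in RAS/shDOT1L, below all RAS libraries (-1.33 ± 0.43, adjusted p = 0.0095), and KCNF1 had 9.98, 10.8 and 7.70 CPM, also below all of them (-0.72 ± 0.18, adjusted p = 0.0013). With the GC offset neither was called: KCNF1 was at -0.23 (adjusted p = 0.31) and KCNH6 at -0.99 (adjusted p = 0.057). KCNG1 had 20.2, 31.8 and 19.9 CPM in RAS/shDOT1L, overlapping RAS, with a log2 fold change of 0.03 ± 0.17, and KCNN4 had 6.39, 5.83 and 4.23 CPM with -0.02 ± 0.27. Both stood above Control, KCNG1 by 2.54 ± 0.19 (adjusted p = 4.73e-12) and KCNN4 by 2.58 ± 0.41 (adjusted p = 3.76e-06) on the log2 scale.

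Calcium-activated genes moved both ways. KCNN2 had 3.52, 3.89 and 2.97 CPM in RAS/shDOT1L, against 5.48, 8.48 and 9.45 CPM in RAS (-1.15 ± 0.28, adjusted p = 0.00075). KCNMA1 had 57.4, 57.4 and 58.6 CPM in RAS/shDOT1L, all above RAS (0.49 ± 0.09, adjusted p = 3.19e-05), and was within -0.01 ± 0.08 of Control. Over all genes, the GC trend ran the other way from that in RAS, with a median log2 fold change of 0.39 in the 10% of lowest GC content and -0.43 in the 10% of highest. Against Control, RAS/shDOT1L had 6 of 30 genes higher and 3 lower, against 27.9% and 27.6% of all genes, and 9 genes at least 2-fold changed against 16.9%. The 6 higher were KCNJ15, KCNMB4, KCNN4, KCNG1, KCNH6 and KCNF1, and the 3 lower were KCNE1, KCNN2 and KCNH2. The KCNH2 call (-1.40, adjusted p = 0.048) was lost without any 1 of the Control libraries (-1.26, -1.52 and -1.41), RAS/shDOT1L replicate 1 (-1.08) or RAS/shDOT1L replicate 3 (-1.37).

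DOT1L OE cells were set against Control, which asks what more DOT1L does without RAS. Of 33 genes tested, 10 were higher in DOT1L OE (among them KCNK1, which met the level rule through that group) and 11 were lower, against 29.9% of all 13660 genes in each direction. At least a 2-fold called difference was found for 19 of the 33, KCNK1 again among them, against 16.7% of all genes. The median log2 fold change was 0.00 for the channel genes and 0.01 for all genes. The Control libraries are the same as in the comparison of RAS with Control, and each comparison's own values are given.

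The rise of KCNF1 was the largest on the log2 scale: 49.8, 42.5 and 51.5 CPM in DOT1L OE, against 2.27, 4.53 and 2.16 CPM in Control (16.2-fold, 4.02 ± 0.16, adjusted p = 4.6e-20). Per kb of annotated exon this made KCNF1 the leading channel gene of these cells, while KCNMA1 stood above it in CPM. KCNH6 had 2.56, 3.13 and 2.95 CPM in DOT1L OE, 10.9-fold above Control (3.44 ± 0.49, adjusted p = 2.64e-07). KCNG1 had 7.41, 13.03 and 10.7 CPM in DOT1L OE, all above Control (1.34 ± 0.20, adjusted p = 8.05e-07), and KCNH1 had 3.31, 4.86 and 4.21 CPM, all above (1.16 ± 0.31, adjusted p = 0.0018). KCND2 rose by 1.60 ± 0.60 (adjusted p = 0.023), a call lost without Control replicate 1 (1.22), Control replicate 2 (1.13), DOT1L OE replicate 2 (1.5) or DOT1L OE replicate 3 (1.41), and read 3.21 without Control replicate 3. KCNQ3 was 5.53-fold lower, at 0.213, 0.560 and 0.281 CPM, against 2.53, 2.21 and 1.26 CPM in Control (-2.47 ± 0.54, adjusted p = 0.00019). KCNH2 and KCND3 fell by 1.30 and 1.28 on the log2 scale (adjusted p = 0.019 and 0.040). KCNH2 lost its call without Control replicate 1 (-1.18), DOT1L OE replicate 1 (-1.34) or DOT1L OE replicate 2 (-1.07), and KCND3 without Control replicate 2 (-0.88) or any 1 of the DOT1L OE libraries (-1.32, -1.0 and -1.57).

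Among calcium-activated genes, KCNMA1 (chromosome 10, 76869601 to 77638369, minus strand) and KCNN2 went in opposite directions. KCNMA1 had 153.0, 148.0 and 139.6 CPM in DOT1L OE, against 58.0, 56.7 and 60.2 CPM in Control (2.52-fold, 1.34 ± 0.06, adjusted p = 8.97e-19). KCNN2 had 0.373, 0.280 and 0.140 CPM in DOT1L OE, against 11.4, 9.43 and 13.1 CPM in Control (42.3-fold lower, -5.40 ± 0.31, adjusted p = 3.51e-16). Each was far apart from Control in all libraries. KCNU1 (Slo3, known from sperm), placed with these genes by symbol only, was left out by the naming rule and is named after its values were seen. It had 0 counts in DOT1L OE against 57 in Control, at least 20.2-fold lower taking 3 counts in the group as the floor. KCNN4 had 0.903 ± 0.51 CPM in DOT1L OE and 0.909 ± 0.46 CPM in Control (0.00 ± 0.55, adjusted p = 0.995), a wide error for a gene this low.

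The inward rectifiers KCNJ2 (1.12, 0.887 and 1.22 CPM in DOT1L OE, all below Control) and KCNJ8 fell, by 1.70 and 1.44 on the log2 scale (adjusted p = 0.00012 and 0.018). KCNJ8 lost its call without Control replicate 3 (-1.26) or DOT1L OE replicate 3 (-0.99). ABCC9 had 0.207 ± 0.23 CPM in DOT1L OE, against 1.13 ± 0.24 CPM in Control (-2.39 ± 0.68, adjusted p = 0.003). KCNJ15 rose to 1.12, 1.87 and 2.99 CPM in DOT1L OE, above all Control libraries (3.40-fold, 1.77 ± 0.50, adjusted p = 0.0029), and lost its call without DOT1L OE replicate 3 (1.35, adjusted p = 0.068). The 7 smooth muscle and pericyte markers summed to 1190 to 1324 CPM in DOT1L OE, against 3922 to 3943 CPM in Control, 6 of them with a lower mean in DOT1L OE and CSPG4 with a higher one, and their part was not tested.

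Auxiliary and leak genes were also mixed. KCNE4 had 6.24, 7.66 and 7.02 CPM in DOT1L OE, against 1.81, 1.94 and 1.26 CPM in Control (4.19-fold, 2.07 ± 0.25, adjusted p = 1.6e-08). KCNE1 had 3.89, 4.76 and 5.01 CPM in DOT1L OE, 2.98-fold below Control (-1.57 ± 0.17, adjusted p = 2.12e-09). KCNAB1 fell by 1.88 ± 0.49 (adjusted p = 0.0012) and KCNMB3 by 1.61 ± 0.65 (adjusted p = 0.033). KCNMB3 lost its call without Control replicate 1 (-1.21), Control replicate 2 (-1.61), DOT1L OE replicate 2 (-1.28) or DOT1L OE replicate 3 (-1.21), and read -2.66 without DOT1L OE replicate 1. KCNK1 (TWIK-1, a leak channel) had 0.800, 0.934 and 1.64 CPM in DOT1L OE, against 0, 0.269 and 0.151 CPM in Control, given as a description because the gene was included through its DOT1L OE libraries. KCNK2 had 2.13, 3.18 and 1.92 CPM in DOT1L OE, overlapping Control, with a log2 fold change of -0.24 ± 0.31 (adjusted p = 0.54). GC content moved less here, with a median log2 fold change of -0.20 in the 10% of lowest GC content and 0.13 in the 10% of highest.

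**Figure D5:**
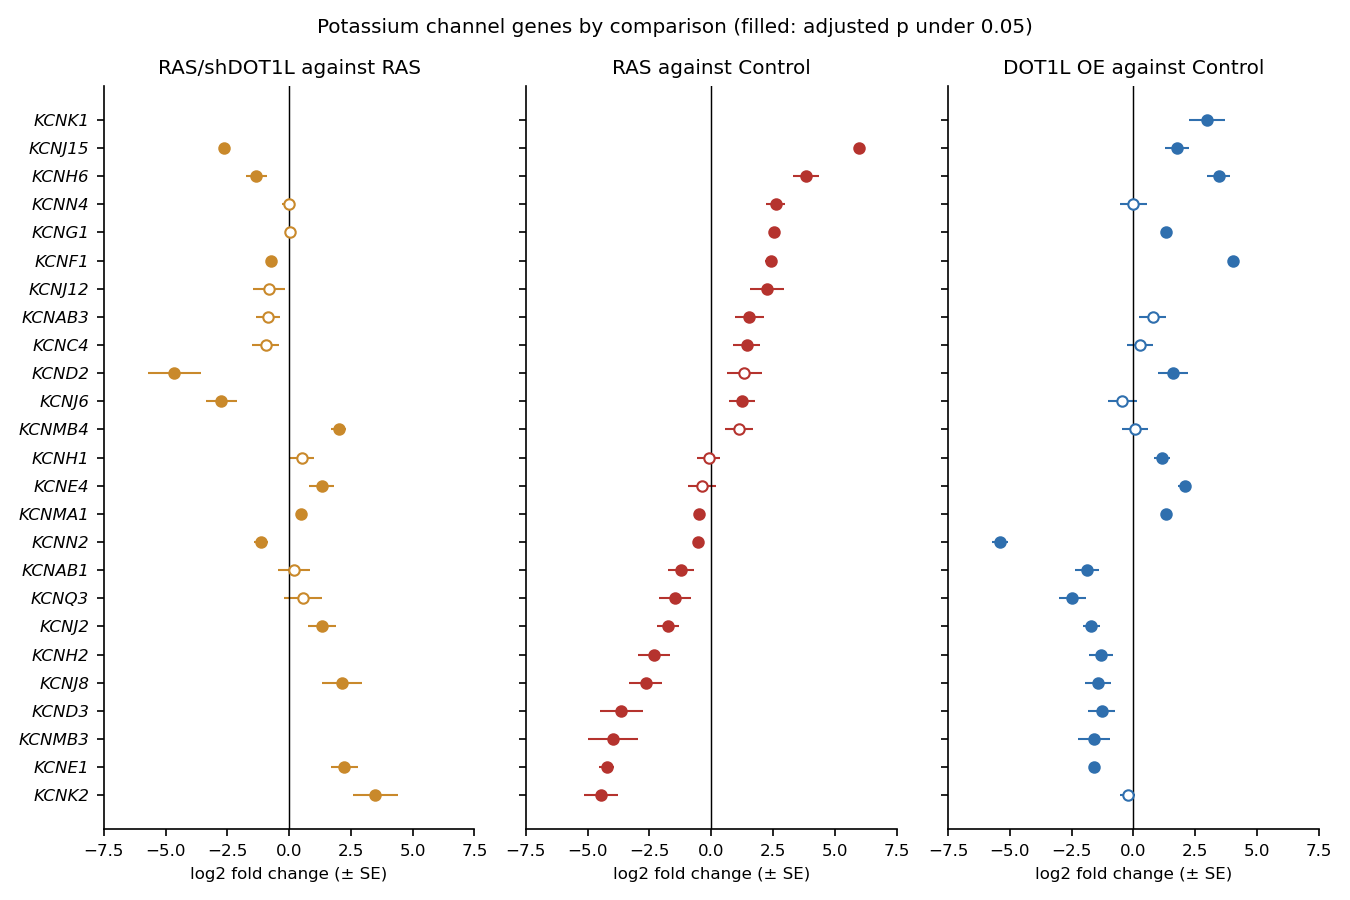
Log2 fold changes with SE (x axis) of the named genes (rows, sorted by RAS against Control) in 3 comparisons, filled where the adjusted p was under 0.05, with no point where a gene was not tested. KCNJ15 and KCNH6 lie right of 0 in RAS against Control and left of 0 in RAS/shDOT1L against RAS, and KCNF1 and KCNN2 lie farthest out in DOT1L OE against Control.

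Genes that share the cell's potassium and volume balance with these channels were counted from lists chosen for their function. Of 14 sodium-potassium pump and cotransport genes tested in each of the 3 comparisons, 3 were higher and 6 lower in RAS against Control, 4 higher and 7 lower in RAS/shDOT1L against RAS, and 6 higher and 4 lower in DOT1L OE against Control. The shares of all genes called higher and lower were 31.9% and 32.0% in RAS against Control, 26.3% and 26.4% in RAS/shDOT1L against RAS, and 29.9% each in DOT1L OE against Control. ATP1B3, a beta subunit of the pump, had 386.8 ± 17 CPM in DOT1L OE, against 179.2 ± 4.1 CPM in Control (1.11 ± 0.05, adjusted p = 2.02e-19). SLC12A7, the potassium-chloride cotransporter KCC4, had 8.89 ± 0.63 CPM in RAS/shDOT1L, against 21.9 ± 1.8 CPM in RAS (-1.28 ± 0.16, adjusted p = 3.74e-08), and 29.5 ± 1.4 CPM in DOT1L OE, against 12.5 ± 0.23 CPM in Control (1.24 ± 0.11). STK39, a kinase that regulates such cotransporters, had 37.1 ± 3.6 CPM in RAS, against 77.6 ± 5.3 CPM in Control (-1.07 ± 0.09, adjusted p = 9.45e-13).

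Calcium entry and release genes upstream of the calcium-activated channels were called at shares near those of all genes in RAS against Control. ITPR3, an IP3 receptor, had 125.4 ± 9.0 CPM in RAS, against 43.0 ± 4.9 CPM in Control (1.54 ± 0.08, adjusted p = 5.4e-18), and 59.0 ± 8.9 CPM in RAS/shDOT1L, against that RAS level (-1.07 ± 0.09). Its relative ITPR2 had 7.99 ± 1.1 CPM in DOT1L OE, against 23.3 ± 0.85 CPM in Control (-1.54 ± 0.13, adjusted p = 7.12e-12). In this list 4 of 12 genes were higher and 3 lower in RAS against Control (31.9% and 32.0% of all genes), 2 higher and 4 lower of 11 in RAS/shDOT1L against RAS (26.3% and 26.4%), and 4 higher and 2 lower of 12 in DOT1L OE against Control (29.9% each).

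Anion channel genes listed for volume regulation were counted too: LRRC8A to LRRC8E, ANO1, ANO6 and CLCN3. LRRC8A, the subunit that volume-regulated anion channels need, had 130.2 ± 3.7 CPM in RAS/shDOT1L, against 269.2 ± 6.5 CPM in RAS (-1.03 ± 0.06, adjusted p = 1.01e-16). LRRC8C had 55.5 ± 0.21 CPM in DOT1L OE, against 23.4 ± 1.1 CPM in Control (1.25 ± 0.08, adjusted p = 2.76e-14). ANO6, a calcium-activated scramblase and ion channel, had 72.8 ± 3.6 CPM in RAS/shDOT1L, against 22.2 ± 2.9 CPM in RAS (1.73 ± 0.10, adjusted p = 1.2e-15), and 85.6 ± 7.5 CPM in DOT1L OE, against 36.0 ± 0.5 CPM in Control (1.25 ± 0.08). Of 8 such genes, 3 of 7 tested were higher and 3 lower in RAS against Control (31.9% and 32.0% of all genes), 2 and 2 of 6 in RAS/shDOT1L against RAS (26.3% and 26.4%), and 4 and 0 of 8 in DOT1L OE against Control (29.9% each).

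Partner subunits outside the KCN names were few. Of 18, 9 were tested in RAS against Control (2 higher, 3 lower, beside 31.9% and 32.0% of all genes) and in DOT1L OE against Control (3 higher, 5 lower, beside 29.9% each), and 8 in RAS/shDOT1L against RAS (3 higher, 2 lower, beside 26.3% and 26.4%). Their median log2 fold change in DOT1L OE against Control was -0.95, against 0.01 for all genes. The median was -0.13 in RAS against Control and 0.35 in RAS/shDOT1L against RAS. In the same order of comparisons, RAS against Control, RAS/shDOT1L against RAS and DOT1L OE against Control, the median was -0.22, -0.11 and 0.11 for the pump and cotransport genes, -0.07, -0.20 and 0.06 for the calcium genes and 0.58, -0.18 and 0.63 for the anion channel genes, beside -0.04, 0.03 and 0.01 for all genes. Among the channel genes, exons of KCNJ14 overlap GRWD1 and those of KCNE5 overlap ACSL4 on the same strand, which makes their counts uncertain. Neither was named for a change. KCNMB3, which was named, overlaps LRRFIP1P1 on the same strand, with 88 counts over the 12 libraries beside 117 for KCNMB3. Smaller same-strand overlaps of named genes were those of KCNH1 with IPO8P1 (12 counts) and KCNJ15 with DSCR8 (7 counts).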

How the data were processed

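Poly(A) RNA of 12 IMR90 libraries was sequenced at both ends. Alignment by the authors was to GRCh38 with STAR (release 2.6.1 in the submitters' processing notes, another in the methods). The authors deposited raw counts, whole numbers by Ensembl gene ID. The gene annotation release and strand setting are not given in the sources used here, so sense and antisense reads of overlapping genes may be mixed.

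Symbols, coordinates, exon lengths and GC content came from GENCODE release 44. Counts were tested with the quasi-likelihood F test of edgeR 4.0.16 in R 4.3.3, two-sided, after filterByExpr and TMM scaling, each comparison on its own 6 libraries, adjusted by the Benjamini-Hochberg method over all genes tested. CPM used TMM factors over 12 libraries. The script was tested on simulated data. The members, gene lists and tests were chosen with earlier results of these data known. Named genes had an adjusted p under 0.05 and at least a 2-fold change in 1 of the 3 main comparisons and a mean of at least 1 CPM in the higher group (26 genes, 1 of them not reported here), with KCNS3 added for its level per kb and 8 other transport genes of smallest p. Where a group had 0 counts, a floor of 3 counts over the group gave a lower bound, and intervals cover counting error only. Alternatives were library size or DESeq2 size factors as scaling, other filters, DESeq2 1.42.0, limma 3.58.1, 1 fit over all groups, a replicate block, a GC offset and leaving out each library.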

Additional observations from a re-analysis of the deposited data

How the results depend on the processing

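No direction of a called channel gene, named or not, reversed under any alternative or library left out. For RAS against Control, 13 of 21 named calls held in every setting and library left out that tested the gene. The same held for 8 of 13 in RAS/shDOT1L against RAS, 12 of 18 in DOT1L OE against Control and 8 of 9 in RAS/shDOT1L against Control. KCNK1, which met the level rule through its DOT1L OE libraries, is among those 12. Not every call was tested in every setting. In the same order, the filter of at least 1 CPM in 3 libraries tested 17, 10, 15 and 8 of these calls. Counts moved by over 1.5 times in these cases only. Genes higher in RAS than Control were 10, and 6 with the replicate block and GC offset together. Genes lower in DOT1L OE than Control were 11, and 7 in 1 fit over all 4 groups. Genes lower in RAS/shDOT1L than Control were 3, and 6 when scaled by library size alone, 7 with limma-voom and 6 with the block and GC offset. Leaving out 1 library gave 6 to 9 genes higher and 10 to 12 lower for RAS against Control, 4 to 7 and 6 to 7 for RAS/shDOT1L against RAS, 8 to 10 and 8 to 10 for DOT1L OE against Control, and 6 to 6 and 2 to 5 for RAS/shDOT1L against Control. Of these, 6 higher in RAS than Control came without RAS replicate 3, 4 higher in RAS/shDOT1L than RAS without RAS replicate 1, and 5 lower in RAS/shDOT1L than Control without RAS/shDOT1L replicate 3. The cause of these shifts was not tested, except that fewer samples entered the fits that left one out.

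Same-numbered libraries did not deviate together over all genes (correlations of -0.02 to 0.03). The labels do not say whether they share an infection or batch, and a correlation over all genes cannot settle it. With the replicate block, 9 genes were higher and 11 lower in RAS against Control, 5 and 6 in RAS/shDOT1L against RAS, and 10 and 10 in DOT1L OE against Control. Of the 37 genes, 20 averaged under 2 CPM over the 12 libraries, which limits the precision of their fold changes.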
